A study of Rattus norvegicus with 43 samples.

Results

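The mitochondrial ribosomal protein genes were described in the distal colon of rats on 6 diets. They were taken as every gene whose symbol begins with Mrpl or Mrps followed by a number. These letters stand for the large and the small subunit, but 2 proteins with Mrps symbols, Mrps18a and Mrps30, belong to the large subunit and are counted there by role, which gives 43 large and 25 small subunit proteins. Each gene was represented by 1 probe set, the one with the highest mean over the 43 arrays. Of 14506 genes with such a probe set, 68 were mitochondrial ribosomal protein genes, 41 with Mrpl and 27 with Mrps symbols. All 68 lay above the filter on low signal and were among the 10828 genes tested.

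Mitochondria carry their own ribosome, which makes the few respiratory chain proteins that mitochondrial DNA encodes. Its ribosomal RNA comes from mitochondrial DNA, while its proteins are encoded in the nucleus, made in the cytosol and imported. Some of these proteins have a counterpart in the bacterial ribosome and others are found only in mitochondria. Colon epithelial cells rely on mitochondrial oxidation of short-chain fatty acids, butyrate among them, which gut bacteria make from starch that escapes digestion.

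The animals were Sprague Dawley rats of 11 weeks, and each array held RNA from the distal colon of a different rat, labelled from 100 ng of total RNA. Apart from the control, diets appear only as codes in the labels, and the meaning used here comes from knowledge of the study. CON is a control diet, and all other diets are Western-type. LAMS has low-amylose maize starch. HAMS has high-amylose maize starch, HAMSB butyrylated high-amylose maize starch, LAW low-amylose wheat and HAW high-amylose wheat. The groups held 5 CON, 7 LAMS, 8 HAMS, 9 HAMSB, 6 LAW and 8 HAW rats. The label HAM was read as HAMS and the label LAM as LAMS. Values are log2 expression from RMA. This method subtracts background, equalises probe signals between arrays and combines the probes of a probe set. The deposited values still differed in distribution. Array medians lay between 5.62 and 5.82, and interquartile ranges between 2.68 and 3.40. Epithelial genes were high throughout, with Epcam at a mean of 11.14 and Slc26a3, the chloride/bicarbonate exchanger of colonocytes, at 10.77.

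The pieces of colon differed in a way that touches every result below. The lymphoid level, the mean of 8 B cell and germinal centre genes, ran from 5.20 to 9.51 over the arrays. It was above 7 in 6 of 8 HAMS arrays but in 2 of 9 HAMSB, 3 of 7 LAMS, 1 of 5 CON, 2 of 6 LAW and 2 of 8 HAW arrays. No array lay between 6.65 and 7.14. The array names also follow 3 styles, whose meaning is not given in the sources used here: all in lower case, diet code first, and animal number first. All 8 HAMS arrays had code-first names, as did 5 of 9 HAMSB, 3 of 7 LAMS, 1 LAW and 3 HAW arrays. The other 4 HAMSB and 3 CON arrays had number-first names, and all others were in lower case. With diet in the model, name style passed limma's F test for 42.7% of all genes and for 26 of the 68, or 38.2%.

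The promoters of 7 genes that lead the results or share a region are printed here. RefSeq's promoter table, on the rat build GRCr8, held 54 of the 68 genes, each with 250 bases before and 50 after the start used there. That start can lie inside the gene as annotated, as it does for Mrps11, Mrpl36, Mrpl22 and, by fewer bases, Mrps18c. The table had no entry for Mrpl13, Mrpl15, Mrpl16, Mrpl19, Mrpl21, Mrpl35, Mrpl38, Mrpl43, Mrps12, Mrps22, Mrps24, Mrps28, Mrps34 and Mrps35. Capitals mark exact matches, on either strand, to the core motifs of 4 factors known to act on mitochondrial or ribosomal genes: CGCATGCG for NRF1, CCGGAAG for GABPA and other ETS factors, AAGATGGC for YY1, and the E-box CACGTG that MYC binds. No motif contains another, and no matches overlap in the printed windows. Mrps18c, Mrpl36 and Mrpl22 were among the 4 largest differences between HAMSB and HAMS, Mrps21 led the comparison of HAMSB with LAMS, and Mrpl17 was among the genes whose HAMSB and HAMS arrays did not overlap. Mrpl46 and Mrps11 are neighbours on opposite strands.
Mrps18c, chr14:9122857-9123156, minus strand: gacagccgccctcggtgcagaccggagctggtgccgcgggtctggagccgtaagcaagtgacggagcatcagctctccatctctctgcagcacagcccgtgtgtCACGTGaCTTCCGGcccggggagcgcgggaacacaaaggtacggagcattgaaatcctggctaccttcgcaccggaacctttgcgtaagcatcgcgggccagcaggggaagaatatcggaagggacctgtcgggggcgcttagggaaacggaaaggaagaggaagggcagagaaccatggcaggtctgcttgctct
Mrpl36, chr1:31795072-31795371, minus strand: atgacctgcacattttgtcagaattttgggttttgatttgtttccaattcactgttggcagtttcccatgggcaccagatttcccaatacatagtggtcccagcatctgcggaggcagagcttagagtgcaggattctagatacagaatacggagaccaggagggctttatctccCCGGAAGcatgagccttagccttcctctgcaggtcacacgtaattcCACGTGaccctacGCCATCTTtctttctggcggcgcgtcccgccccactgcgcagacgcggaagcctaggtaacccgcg
Mrpl22, chr10:42845660-42845959, plus strand: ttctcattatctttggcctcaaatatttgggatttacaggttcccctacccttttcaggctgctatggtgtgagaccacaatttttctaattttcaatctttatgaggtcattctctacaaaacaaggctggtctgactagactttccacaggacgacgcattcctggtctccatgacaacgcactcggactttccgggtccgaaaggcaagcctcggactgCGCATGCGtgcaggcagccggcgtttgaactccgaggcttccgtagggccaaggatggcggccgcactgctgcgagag
Mrpl17, chr1:169575650-169575949, minus strand: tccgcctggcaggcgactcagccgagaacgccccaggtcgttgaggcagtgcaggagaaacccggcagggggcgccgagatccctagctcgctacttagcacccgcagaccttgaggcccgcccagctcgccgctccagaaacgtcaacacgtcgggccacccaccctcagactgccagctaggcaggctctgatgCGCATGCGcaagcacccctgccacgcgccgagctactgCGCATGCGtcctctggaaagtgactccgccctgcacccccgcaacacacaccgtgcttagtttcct
Mrps21, chr2:186103302-186103601, minus strand: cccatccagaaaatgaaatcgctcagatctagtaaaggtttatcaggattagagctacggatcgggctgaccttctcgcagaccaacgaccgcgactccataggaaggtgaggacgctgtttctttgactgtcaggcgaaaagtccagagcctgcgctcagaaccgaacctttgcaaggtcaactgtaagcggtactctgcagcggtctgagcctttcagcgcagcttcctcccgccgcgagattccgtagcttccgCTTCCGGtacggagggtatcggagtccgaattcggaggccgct
Mrpl46, chr1:142116981-142117280, minus strand: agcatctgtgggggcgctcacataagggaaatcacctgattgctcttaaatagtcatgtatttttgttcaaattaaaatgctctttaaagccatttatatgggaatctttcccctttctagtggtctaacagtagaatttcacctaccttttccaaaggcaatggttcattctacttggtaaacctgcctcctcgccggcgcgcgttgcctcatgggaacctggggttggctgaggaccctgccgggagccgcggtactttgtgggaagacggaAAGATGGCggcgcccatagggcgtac
Mrps11, chr1:142117014-142117313, plus strand: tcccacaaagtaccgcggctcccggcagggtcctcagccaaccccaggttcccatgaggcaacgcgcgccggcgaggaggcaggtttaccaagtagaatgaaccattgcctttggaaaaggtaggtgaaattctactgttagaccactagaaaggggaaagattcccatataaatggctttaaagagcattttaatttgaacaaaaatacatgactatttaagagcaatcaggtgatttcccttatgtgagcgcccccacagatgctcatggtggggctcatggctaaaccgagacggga
In Mrps18c, the small subunit protein related to bacterial S18, the E-box and the GABPA core stand side by side. Mrpl36, the counterpart of the small zinc-binding bacterial protein L36, holds a GABPA core, an E-box and a YY1 core. Mrpl17 holds 2 NRF1 cores, Mrpl22 holds 1, and Mrps21 holds a GABPA core just after its start. The windows of Mrpl46 and Mrps11 share 267 bases, read on opposite strands. Mrpl46 holds a YY1 core beyond the shared bases, and the printed Mrps11 window holds none of these motifs. The Mrps11 gene is annotated from base 142117045, near the beginning of its window. Most bases before the gene, with the YY1 core of Mrpl46 among them, therefore lie outside that window.

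The YY1 core was found in 14 of the 54 promoters, or 25.9%, against 4.23% of the 11968 promoters of genes with a probe set. The GABPA core was in 18 of 54, or 33.3%, against 13.0%. The NRF1 core was in 6 of 54, or 11.1%, against 2.67%. The E-box was in 6 of 54, or 11.1%, against 7.87%. Of all 27457 promoters in the table, 3.44% held the YY1 core, 9.22% the GABPA core, 1.81% the NRF1 core and 6.65% the E-box. These matches describe letters in a window and are not shown to be bound.

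Averaged over the 68 genes, the level was highest in HAMSB and lowest in HAMS. The mean of the 68 values on an array was 7.32 ± 0.10 (SD, n = 9) in HAMSB, with the arrays between 7.20 and 7.48. It was 7.24 ± 0.13 (SD, n = 5) in CON, where the arrays ran from 7.05 to 7.39. In LAMS it was 7.17 ± 0.17 (SD, n = 7), in HAW 7.11 ± 0.17 (SD, n = 8) and in LAW 7.10 ± 0.14 (SD, n = 6). In HAMS it was 7.05 ± 0.18 (SD, n = 8), with a lowest array of 6.84, a median of 7.06 and a highest of 7.40. Neighbours in this order overlapped in their arrays, and even HAMSB and HAMS overlapped through the highest HAMS array. Of the 68 genes, 41 had their highest diet mean in HAMSB and 12 in CON, and 36 had their lowest in HAMS and 21 in LAW.

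**Figure D1:**
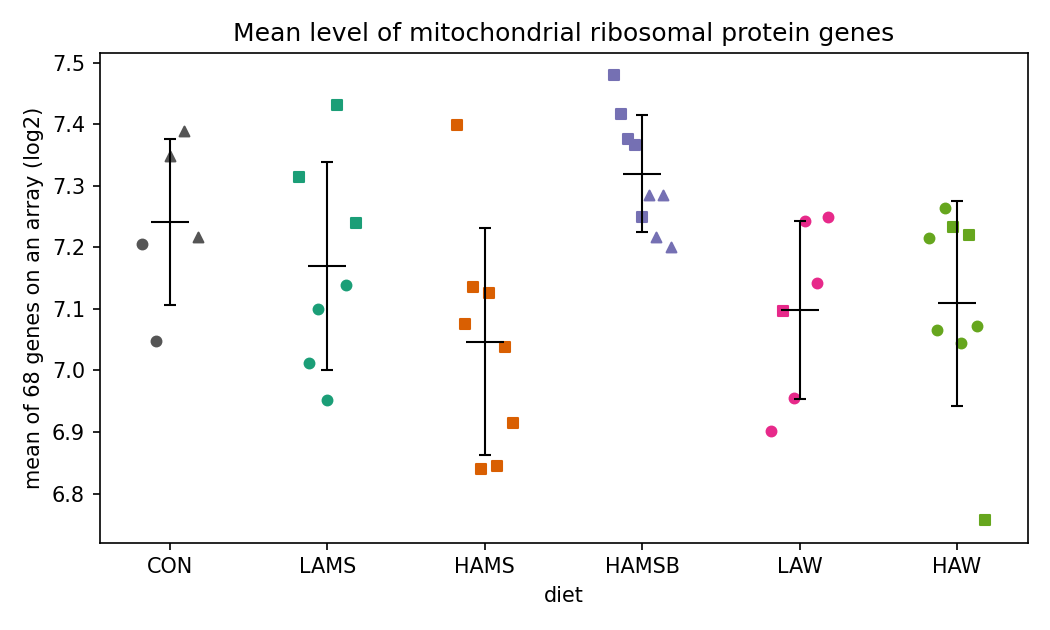
Mean log2 level of the 68 mitochondrial ribosomal protein genes on each of the 43 arrays, by diet; horizontal lines are the diet mean and bars ± 1 SD. Circles are arrays with lower-case names, squares code-first and triangles number-first names. HAMSB arrays lie between 7.20 and 7.48, and 7 of the 8 HAMS arrays lie below all of them.

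Within diets, the mean over the 68 genes was also read by name style and lymphoid level. The 5 code-first HAMSB arrays averaged 7.38 over the 68 genes at a lymphoid level of 5.73, and the 4 number-first ones 7.25 at 6.76. The 3 code-first LAMS arrays averaged 7.33 at a lymphoid level of 5.27, and the 4 lower-case ones 7.05 at 7.40. Other diets differed from this pattern. In CON the 3 number-first arrays averaged 7.32 at a lymphoid level of 6.35 and the 2 lower-case ones 7.13 at 5.64. In HAW the 3 code-first arrays averaged 7.07 at 6.52 and the 5 lower-case ones 7.13 at 6.37. In LAW both styles stood at 7.10, at 5.90 for the 1 code-first array and 6.75 for the 5 lower-case ones. What the lymphoid level and the name style contribute to the diet differences was not tested beyond the fits given with each comparison.

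Across the 6 diets, 24 of the 68 genes (35.3%) passed limma's F test at an adjusted p of 0.05, against 31.0% of all genes tested. The share is near the background. The count was 13 without HAMSB replicate 2 and 14 without HAMSB replicate 1. It was 15 without HAMSB replicate 3 or 5 or HAMS replicate 6. Fewer of all genes passed in these fits too, from 23.2% without HAMS replicate 6 to 25.9% without HAMSB replicate 3. The smallest adjusted p-values belonged to Mrps21 (0.00467), Mrpl52 (0.00671), Mrps23 (0.0105), Mrps18c (0.0117), Mrps11 (0.0124) and Mrpl36 (0.0132). By role, the test was passed by 6 of 24 large subunit proteins with a bacterial counterpart and by 9 of 19 that are specific to mitochondria. In the small subunit it was passed by 5 of 16 with a bacterial counterpart and 4 of 9 specific to mitochondria. Here and below, Mrps18b is counted with a bacterial counterpart, although Mrps18a is counted as specific to mitochondria. The shares by role depend on such assignments.

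**Figure D2:**
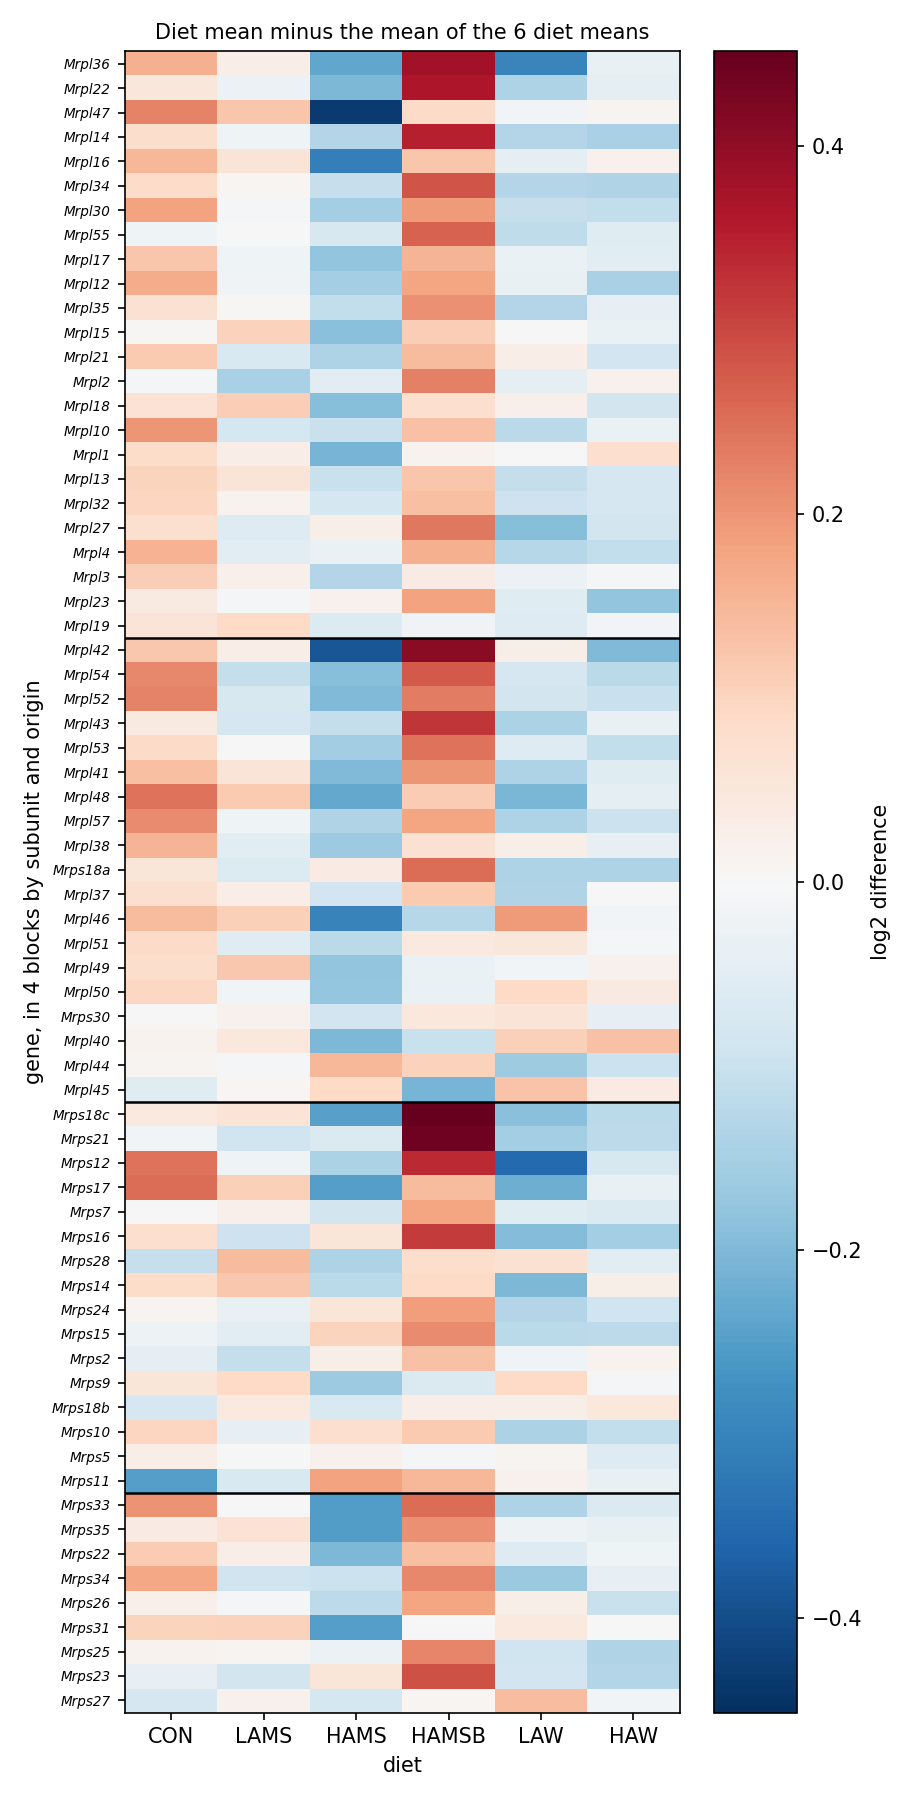
Mean level of each of the 68 genes in each diet minus the mean of that gene's 6 diet means, on the log2 scale; red is higher and blue lower. The 4 blocks, from the top, are the large subunit proteins with a bacterial counterpart, those specific to mitochondria, and the same for the small subunit. HAMSB is the highest diet for 41 genes and HAMS the lowest for 36.

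The comparison of HAMSB with HAMS addresses what the butyrylated starch adds to high-amylose maize starch, and most of the change in this family lay here. In HAMSB 24 of 68 genes (35.3%) were higher than in HAMS and 0 were lower, while 14.5% of all genes tested were higher, 2.58% lower and 17.0% called in all. The estimate was above 0 for 64 of the 68 genes. Their median difference was 0.25 log2 against 0.07 over all genes. With the lymphoid level as a covariate, 61 of 68 estimates were above 0 at a median of 0.14, but 0 genes were called higher and 1, Mrpl45, was called lower. That fit with the lymphoid level called 1.95% of all genes higher and 0.0924% lower. Without HAMS replicate 4, and with no covariate, 15 genes were called, against 9.81% of all genes. In tissue RNA, fewer cells of a type and less RNA per cell cannot be told apart.

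The largest rises were in Mrpl42, Mrps18c, Mrpl36 and Mrpl22. Mrpl42, a large subunit protein found only in mitochondria, ranged from 7.22 to 8.60 with a median of 8.07 in HAMS and from 7.92 to 9.17 with a median of 8.84 in HAMSB. The mean rose from 7.95 ± 0.51 (SD, n = 8) to 8.74 ± 0.39 (SD, n = 9), a difference of 0.79 ± 0.19 (SE; limma adjusted p = 0.0048), or 1.73-fold. The HAMSB arrays lay mostly above the HAMS arrays, with overlap. Its second, dimmer probe set gave 0.61.

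Mrps18c ranged from 6.96 to 8.32 with a median of 7.74 in HAMS and from 7.85 to 8.79 with a median of 8.58 in HAMSB. The difference of 0.70 ± 0.16 (SE; limma adjusted p = 0.00461) corresponds to 1.62-fold. The CON arrays read 7.65, 7.85, 8.02, 8.09 and 8.14, near the lower HAMSB arrays. The 9 HAMSB arrays fell into 2 sets that followed name style: the code-first arrays lay between 8.58 and 8.79 and the number-first arrays between 7.85 and 8.14. Set against HAMS on code-first arrays alone, 5 against 8, the difference was 1.02 ± 0.17 (SE; limma adjusted p = 0.00241).

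Mrpl36 rose from 7.08 ± 0.31 (SD, n = 8) to 7.70 ± 0.19 (SD, n = 9), a difference of 0.61 ± 0.16 (SE; limma adjusted p = 0.00753). The highest HAMS array read 7.481 and the lowest HAMSB array 7.484, so the groups just failed to meet. Mrpl22, the counterpart of bacterial L22, which lines the exit tunnel for the new protein chain, rose from 6.45 ± 0.32 (SD, n = 8) to 7.02 ± 0.27 (SD, n = 9), by 0.57 ± 0.14 (SE; limma adjusted p = 0.00563). Its arrays overlapped, from 5.93 to 6.92 in HAMS and from 6.63 to 7.31 in HAMSB.

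Every HAMSB array was above every HAMS array for 3 of the 68 genes, Mrpl36, Mrpl17 and Mrps35, against 0.462% of all genes tested. They were singled out after their values were seen. Mrps35, a small subunit protein found only in mitochondria, ran from 5.89 to 6.52 in HAMS and from 6.55 to 6.90 in HAMSB. Its difference was 0.46 ± 0.11 (SE; limma adjusted p = 0.00482). Mrpl17, the counterpart of bacterial L17, ran from 7.62 to 8.02 and from 8.04 to 8.29, a difference of 0.33 ± 0.09 (SE; limma adjusted p = 0.011).

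Genes of both subunits passed, and 14.5% of all genes tested were higher in HAMSB. Among large subunit proteins, 9 of 24 (37.5%) with a bacterial counterpart and 7 of 19 (36.8%) specific to mitochondria passed. Among small subunit proteins, 3 of 16 (18.8%) with a bacterial counterpart and 5 of 9 (55.6%) specific to mitochondria passed. The share of 18.8% is near that of all genes. Differences of the genes that passed ran from 0.30 for Mrps26 to 0.79 for Mrpl42. Of the 44 that did not pass, Mrpl45 had the lowest estimate, -0.30 ± 0.12 (SE; limma adjusted p = 0.0666). Mrpl45 is known to help hold the ribosome at the inner membrane where its products are inserted. It ran from 6.46 to 7.61 in HAMS and from 6.29 to 6.91 in HAMSB, and it is the gene called lower once the lymphoid level was in the model.

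**Figure D3:**
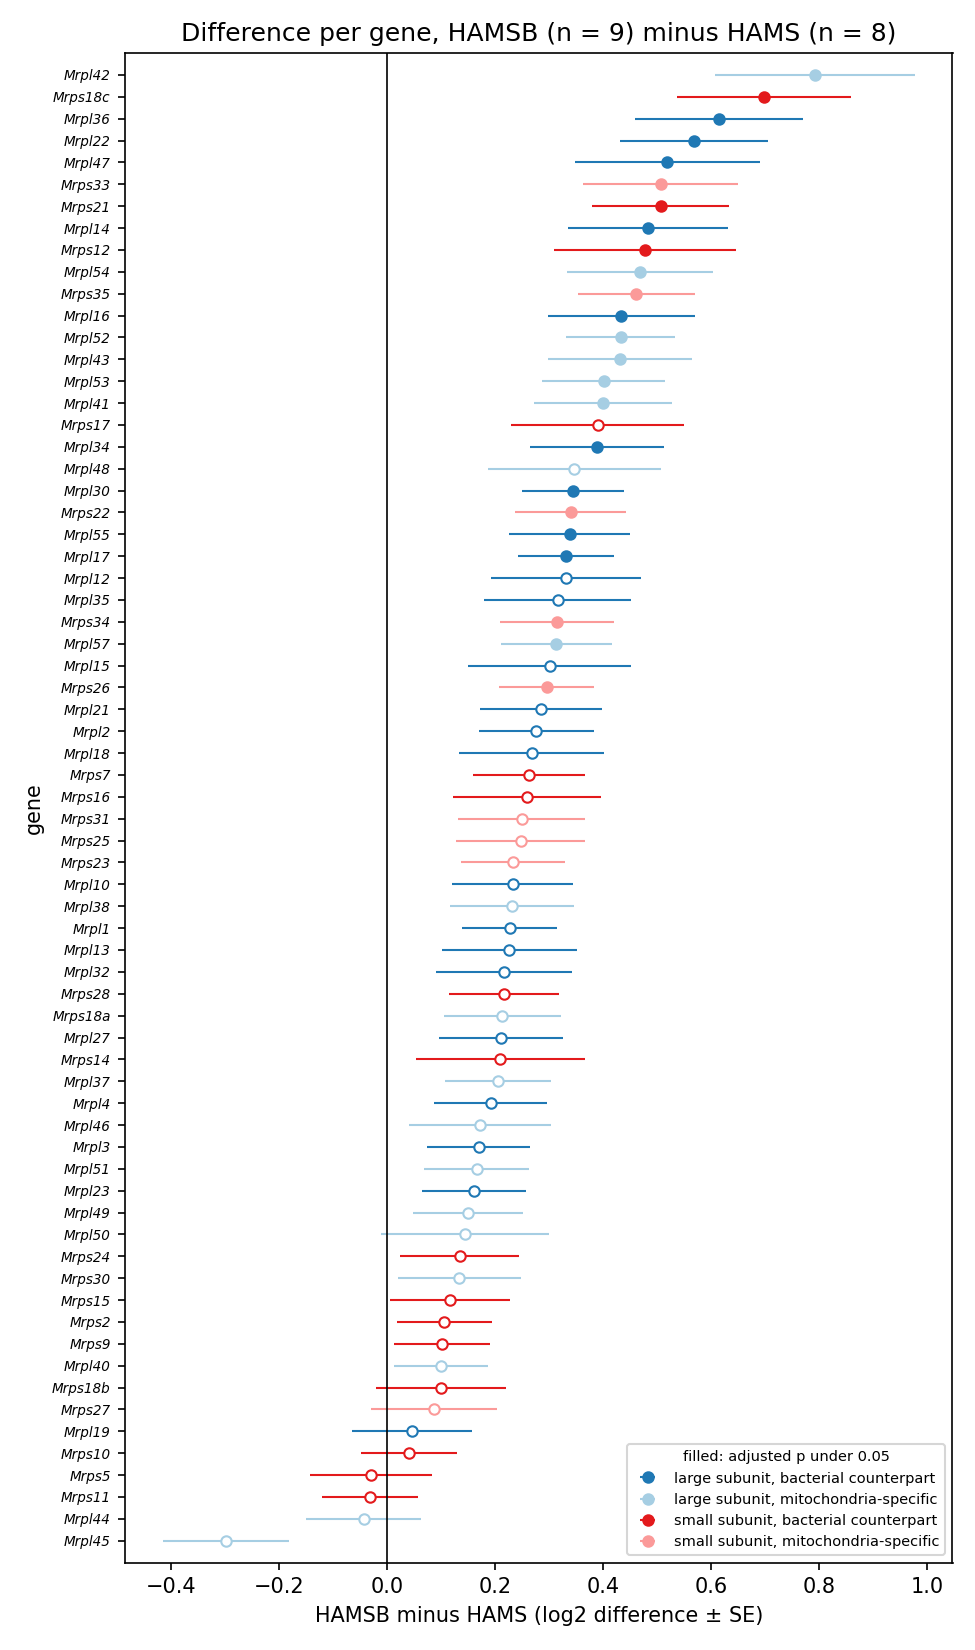
Difference between the HAMSB mean (n = 9) and the HAMS mean (n = 8) for each of the 68 genes, in log2 units with bars of ± 1 SE from limma; colours give subunit and origin, and filled points have an adjusted p under 0.05. The 24 filled points all lie to the right of 0, between 0.30 and 0.79, and 4 genes lie to the left of 0.

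The comparison was also made with name style held. On code-first arrays alone, 26 genes were higher in HAMSB and 0 lower, against 14.2% of all genes higher and 22.2% called. They included 22 of the 24, without Mrpl16 and Mrpl17. With style as a block, 32 were higher and 0 lower, 23 of the 24 among them, against 19.6% of all genes higher. The lymphoid gap was still present on the code-first arrays, where HAMSB minus HAMS was -2.10 log2. With both style and lymphoid level in the model, Mrps21, Mrps18c and Mrpl34 were higher, at 0.55, 0.63 and 0.40, and Mrpl45 was lower at -0.51. That fit called 2.67% of all genes higher and 1.84% lower.

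Within HAMSB, for 13 of the 68 genes every code-first array was above every number-first array, against 5.50% of all genes tested, and for 2 genes it was below, against 6.71%. The 13 included Mrps18c, Mrps21, Mrpl22 and Mrpl2. The 2 were Mrpl17 and Mrps17, the counterpart of bacterial S17.

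HAMSB against LAMS asks how the butyrylated starch differed from low-amylose starch in the Western-type diet. Here 3 of 68 genes (4.41%) were higher, Mrps21, Mrps23 and Mrpl2, and 0 were lower, against 2.20% of all genes higher, 4.65% lower and 6.84% called in all. The median difference was 0.18 log2 against 0.00 over all genes, and 51 of 68 estimates were above 0. With style as a block the median was 0.09, and on code-first arrays alone it was 0.00, with 34 of 68 estimates above 0. At an unadjusted p of 0.05, 22 of the 68 genes passed, against 2837 of all 10828 genes. Leaving out 1 array gave 0 (LAMS replicate 4) to 11 (LAMS replicate 1) genes, and the count moved past 1.5 times for 10 of 16 arrays. Of all genes, 1.89% were called without LAMS replicate 4 and 12.8% without LAMS replicate 1. In addition, 10 genes were higher with the lymphoid level as a covariate, against 4.47% of all genes, while within code-first arrays 0 were higher and 1 lower, against 0.351% of all genes called.

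Mrps21, the counterpart of bacterial S21, had its highest diet mean in HAMSB. Its CON arrays read 7.64 for the lowest and 8.10 for the highest. The LAMS arrays ran from 7.42 to 8.30 with a median of 7.71, the HAMS arrays from 7.37 to 8.28 with a median of 7.84, and the HAMSB arrays from 7.87 to 8.68 with a median of 8.47. LAMS and HAMS covered much the same range, and both overlapped the lower HAMSB arrays. The difference from LAMS was 0.53 ± 0.13 (SE; limma adjusted p = 0.0149) and from HAMS 0.51 ± 0.13 (SE; limma adjusted p = 0.00684). The comparisons share the HAMSB arrays.

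Mrps21 followed name style closely. Its code-first HAMSB arrays lay between 8.47 and 8.68 and its number-first ones between 7.87 and 8.06, and style itself passed limma's F test (adjusted p = 0.00012). With style as a block the difference from LAMS was 0.48 ± 0.12 (SE; limma adjusted p = 0.0214). On code-first arrays alone, 5 against 3, it was 0.55 ± 0.17 (SE; limma adjusted p = 0.12). Without LAMS replicate 4 the adjusted p was 0.0556 at a difference of 0.47.

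Mrps23, a small subunit protein found only in mitochondria, was 7.61 ± 0.27 (SD, n = 7) in LAMS and 7.98 ± 0.17 (SD, n = 9) in HAMSB. The difference was 0.37 ± 0.10 (SE; limma adjusted p = 0.024), and the arrays overlapped between 7.77 and 8.14. Mrpl2, the counterpart of bacterial L2 beside the site where peptide bonds form, was 6.75 ± 0.23 (SD, n = 7) in LAMS and 7.12 ± 0.20 (SD, n = 9) in HAMSB, a difference of 0.37 ± 0.11 (SE; limma adjusted p = 0.0356). With style as a block neither Mrps23 (0.29, limma adjusted p = 0.127) nor Mrpl2 (0.33, limma adjusted p = 0.0895) passed. That fit called Mrps21, Mrps18c and Mrps2 higher and Mrps17 lower, against 1.39% of all genes higher and 1.65% lower. Without LAMS replicate 4 none of Mrps21, Mrps23 and Mrpl2 passed. Mrpl52 came next, at 0.30 log2 with an adjusted p of 0.0652.

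**Figure D4:**
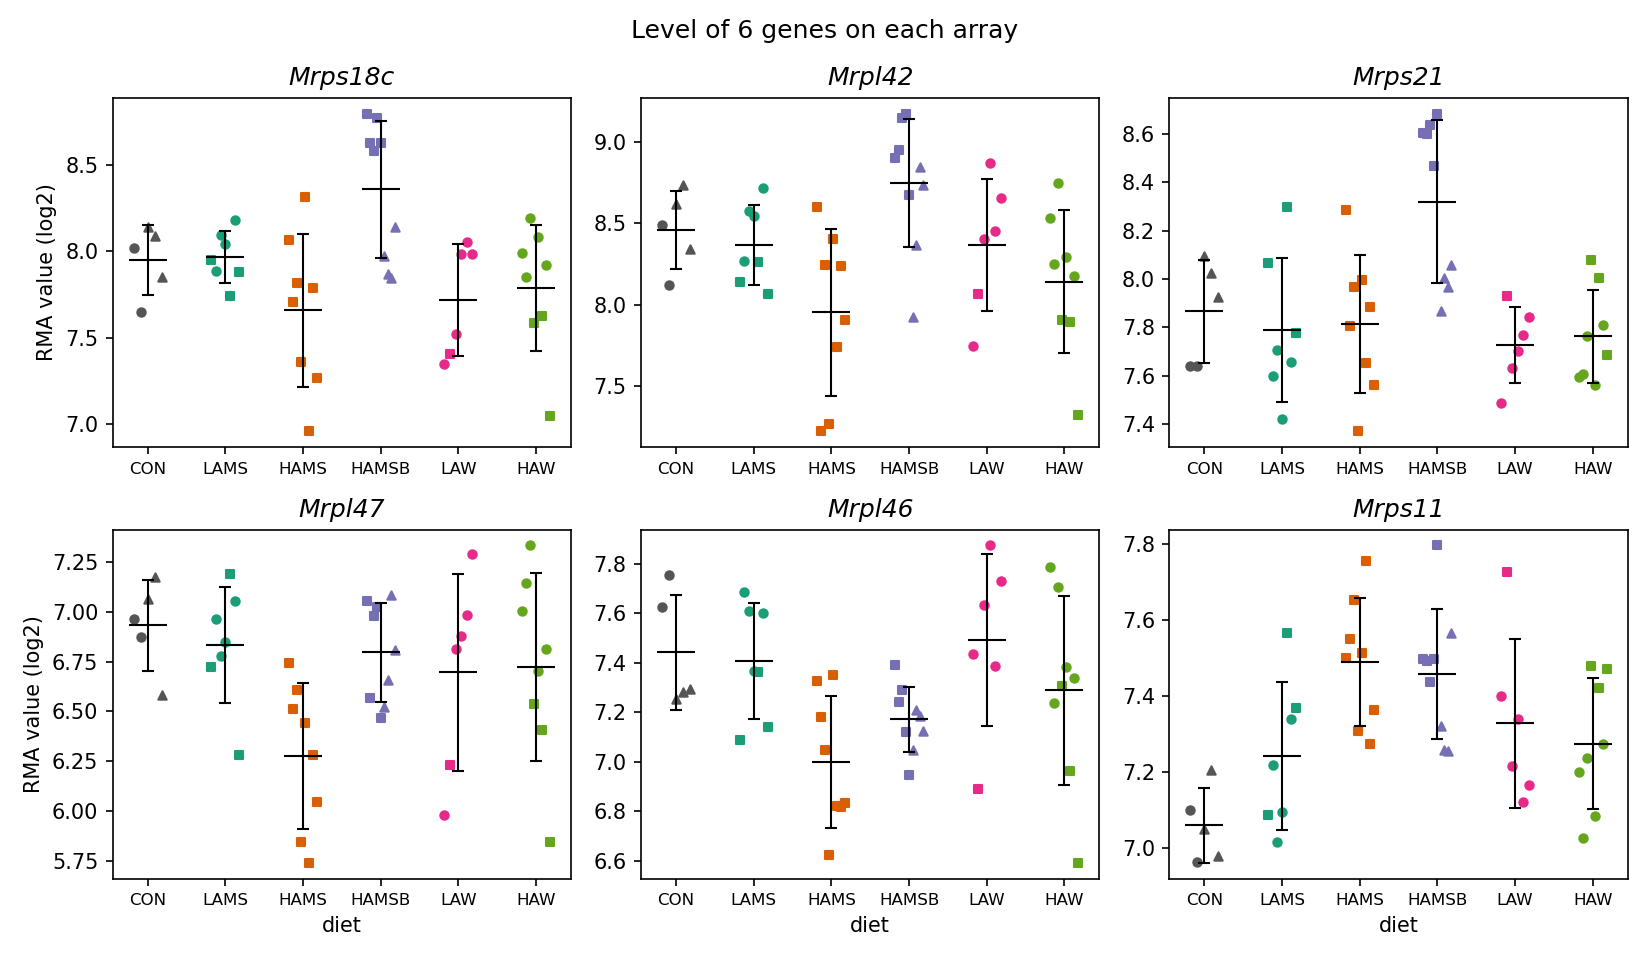
RMA log2 value of 6 genes on each array by diet, with the diet mean and ± 1 SD; circles are arrays with lower-case names, squares code-first and triangles number-first names, and each panel has its own vertical axis. For Mrps18c and Mrps21 the squares and triangles of HAMSB stand apart, and Mrpl47 is lowest in HAMS, with arrays from 5.74 to 6.74.

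HAMS against LAMS compares high- with low-amylose maize starch. Of 68 genes 2 (2.94%) were lower in HAMS, Mrpl47 and Mrpl46, and 0 were higher, against 12.1% of all genes lower, 2.13% higher and 14.2% called. The share of members called lower was thus below the background. The median difference was -0.12 log2 against -0.09 over all genes, and 16 of 68 estimates were above 0. At an unadjusted p of 0.05, 16 of the 68 genes passed, against 3650 of all 10828 genes. Leaving out 1 array gave 0 to 9 genes: 0 without any of 4 HAMS arrays (replicates 4, 6, 7 and 8) or of LAMS replicates 3 and 6, and 9 without HAMS replicate 1. Where 0 were called, the share of all genes ran from 5.73% (LAMS replicate 6) to 10.3% (HAMS replicate 7). Without HAMS replicate 1 it was 22.3%. With each array centred on its median 0 passed and the median of the 68 was -0.01, a centring that moved the median of all genes by 0.11 log2.

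Mrpl47, the counterpart of bacterial L29, ran from 6.28 to 7.19 with a median of 6.85 in LAMS and from 5.74 to 6.74 with a median of 6.36 in HAMS. It fell by 0.56 ± 0.18 (SE; limma adjusted p = 0.0364), and in HAMSB it stood at 6.80 ± 0.25 (SD, n = 9). Mrpl46, a large subunit protein found only in mitochondria, was 7.41 ± 0.24 (SD, n = 7) in LAMS and 7.00 ± 0.27 (SD, n = 8) in HAMS, a fall of 0.41 ± 0.14 (SE; limma adjusted p = 0.0449). In HAMSB it was 7.17 ± 0.13 (SD, n = 9). Neither passed with style as a block, with the lymphoid level as a covariate, or on code-first arrays alone, where the differences were -0.46 and -0.20. Mrps31 and Mrps35, both specific to mitochondria, came next at -0.35 (adjusted p = 0.0515) and -0.32 (adjusted p = 0.054).

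A different set was lower in HAMS once name style was held. With style as a block 8 genes were lower, none of them Mrpl47 or Mrpl46, against 6.38% of all genes. The lowest was Mrps17 at -0.72 ± 0.11 (SE; limma adjusted p = 0.00059), which was -0.35 without the block (limma adjusted p = 0.138). On code-first arrays alone, 8 against 3, 11 genes were lower and 0 higher, against 7.37% of all genes lower and 11.3% called. The 3 LAMS arrays there had lymphoid levels of 5.26 to 5.28 and the HAMS arrays lay 2.56 log2 higher.

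Mrpl46 and Mrps11, the neighbours whose promoters were printed, had opposite estimates. Mrps11, the counterpart of bacterial S11, was 7.24 ± 0.20 (SD, n = 7) in LAMS and 7.49 ± 0.17 (SD, n = 8) in HAMS, an estimate of 0.25 ± 0.09 (SE; limma adjusted p = 0.0666). It was lowest in CON, whose arrays read 6.96, 6.98, 7.05, 7.10 and 7.20. This rests on 1 of the gene's 2 probe sets. The other gave -0.10 for HAMS against LAMS and 0.26 for HAMSB against HAMS, where the brighter one gave -0.03, so the 2 disagree. The paired probe sets of Mrpl41 and Mrpl40 gave 0.40 and 0.39, and 0.10 and 0.08, for HAMSB against HAMS.

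In the other 3 comparisons 0 of 68 genes passed limma's test, and 0% of all genes did. For LAMS against CON, 3 of the 68 genes had an unadjusted p under 0.05, against 935 of all 10828 genes. The median difference was -0.08 log2 against -0.04 over all genes. The smallest p belonged to Mrpl52, a large subunit protein found only in mitochondria. Its CON arrays read 8.53, 8.64, 8.65, 8.68 and 8.80, and its LAMS arrays ran from 7.99 to 8.63 with a median of 8.39. The estimate was -0.30 ± 0.12 (SE; limma adjusted p = 0.461), with 3 genes next: Mrps34 at -0.26, Mrpl10, a protein of the ribosome's stalk, at -0.28 and Mrps28 at 0.25.

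For LAW against LAMS, 0 of the 68 genes had an unadjusted p under 0.05, against 188 of all 10828 genes. Of the 68 estimates 15 were above 0, at a median of -0.08 log2 against 0.01 over all genes. Mrpl36, Mrps14, Mrps17 and Mrpl48 had the smallest p-values, each at -0.33. On lower-case arrays alone, 5 against 4, the direction turned, with 49 of 68 estimates above 0 and a median of 0.05. For HAW against LAW, 0 of the 68 genes had an unadjusted p under 0.05, against 209 of all 10828 genes. The median was 0.02 log2 against -0.02 over all genes. Here Mrps12, whose bacterial counterpart S12 helps read the code, stood at 0.28, Mrpl36 at 0.26, Mrps14 at 0.23 and Mrpl46 at -0.20. The 95% intervals of these differences had a median reach of 0.26 log2 to either side in both wheat comparisons and 0.28 for LAMS against CON as a limit on what could be detected. The amylose effect in wheat (HAW minus LAW) minus that in maize (HAMS minus LAMS) passed for 0 of 68 genes and for 0.0277% of all genes. By limma, 9 of 68 had an unadjusted p under 0.05, against 1662 of all 10828 genes. The median was 0.13 log2 against 0.06 over all genes.

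The lymphoid level was followed gene by gene within diets. With diet in the model, 45 of the 68 genes (66.2%) fell as the lymphoid level of the array rose and 0 rose, against 35.5% of all genes falling, 18.2% rising and 53.7% called. Mrpl15 had the smallest p, at -0.17 ± 0.02 log2 (SE) per log2 unit of lymphoid level (limma adjusted p = 1.82e-07). Mrpl14 stood at -0.15, Mrpl36 at -0.15 and Mrpl52 at -0.11. The slope was above 0 for 3 genes, Mrps2, Mrps28 and Mrpl40, none of which passed. T cell genes rose with the lymphoid level for 7 of 7, while 10 of 11 epithelial, 7 of 7 fibroblast, 7 of 8 smooth muscle and 5 of 7 adipocyte genes fell.

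**Figure D5:**
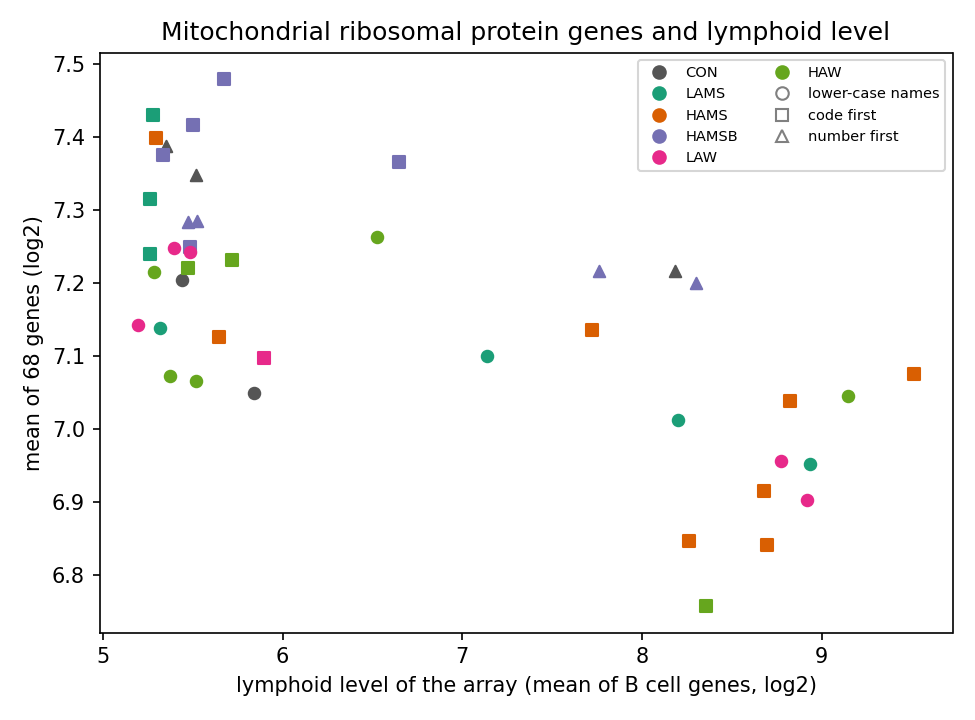
Mean log2 level of the 68 genes against the lymphoid level (mean of 8 B cell and germinal centre genes, log2) on each of the 43 arrays; colours give the diet and shapes the style of the array name. The 6 HAMS arrays to the right of 7 all lie below the 9 HAMSB arrays, 7 of which lie to the left.

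Other markers moved in the same comparison. The mean of 11 epithelial genes was 10.27 ± 0.42 (SD, n = 8) in HAMS and 10.73 ± 0.19 (SD, n = 9) in HAMSB, with 4 of 11 higher and 0 lower in HAMSB. Of all genes tested, 14.5% were higher and 2.58% lower in HAMSB. The T cell mean was 6.95 in HAMS and 5.65 in HAMSB, the fibroblast mean 9.50 and 9.85, and the smooth muscle mean 10.90 and 11.21. All 8 B cell genes had estimates below 0 for HAMSB against HAMS, at a median of -1.62 log2, and 2 passed. The spread of an array, the interquartile range of its values, was 3.01 ± 0.14 (SD, n = 8) in HAMS and 3.12 ± 0.08 (SD, n = 9) in HAMSB. Code-first arrays had a lower mean spread than the other arrays of their diet. It was 3.12 against 3.27 on lower-case arrays in LAMS and 2.98 against 3.30 in HAW. In LAW the 1 code-first array read 2.98, against a mean of 3.27 on lower-case ones. In HAMSB the means were 3.09 on code-first and 3.17 on number-first arrays. With the spread as a covariate 21 of the 68 were higher and 1 lower, against 13.3% of all genes higher and 23% called.

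Genes around the mitochondrial ribosome were set beside its proteins for HAMSB against HAMS, where 14.5% of all genes were higher and 2.58% lower. Of 73 nuclear genes for subunits of oxidative phosphorylation, the chain that mitochondrial translation serves, 43 were higher and 0 lower, at a median of 0.42 log2. Of 76 cytosolic ribosomal proteins, 0 were higher and 1 lower, at a median of 0.03. Within diets, 68 of the 73 subunits fell with the lymphoid level and 0 rose, against 35.5% of all genes falling and 18.2% rising. Of the 76 cytosolic proteins 30 rose and 2 fell. The part of the lymphoid level in these counts was not tested. Of 5 mitochondrial ribosomal proteins with other symbols, 2 were higher, Aurkaip1 at 0.41 (adjusted p = 0.00375) and Chchd1 at 0.49 (adjusted p = 0.0361), both small subunit proteins, by limma.

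The factors that build and serve the ribosome are listed next for HAMSB against HAMS, again beside 14.5% of all genes higher and 2.58% lower. Of 20 assembly factors 2 were higher and 1 lower, with Malsu1, which acts late on the large subunit, at 0.48 and Mterf3 at 0.36. Of 11 translation factors 1 was higher, Slirp, which binds mitochondrial messenger RNA, at 0.60, and 1 was lower, Mrrf, the ribosome recycling factor, at -0.29. Of 11 mitochondrial aminoacyl-tRNA synthetases, which charge tRNAs, 0 passed limma's test and 1 had an unadjusted p under 0.05, against 3794 of all 10828 genes. Of 9 genes of mitochondrial DNA transcription and replication 2 were higher, Ssbp1 at 0.37 and Tefm at 0.28. Of 8 regulators of mitochondrial biogenesis 2 were higher, the coactivators Ppargc1b at 0.38 and Ppargc1a at 0.63 (limma adjusted p = 0.0494). The regulators Nrf1, Gabpa, Yy1 and Myc, whose motifs were searched above, stood at -0.24, 0.00, 0.05 and -0.26 and did not pass.

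For HAMS against LAMS, 12.1% of all genes were lower and 2.13% higher. Of 11 translation factors 3 were lower, among them Gfm2 at -0.47 and the release factor Mtrf1l at -0.39. So were 3 of 11 synthetases, with Rars2 at -0.45 and Nars2 at -0.34. Mterf3 fell by 0.53, the DNA helicase Twnk by 0.41 and Ppargc1a by 0.72. Of the oxidative phosphorylation subunits 3 of 73 were lower and 0 higher, and of the cytosolic ribosomal proteins 8 of 76 were higher and 1 lower. For HAMSB against LAMS, where 2.20% of all genes were higher, 6 of the 73 subunits and 4 of the 76 cytosolic proteins were higher, and the RNA-binding protein Lrpprc fell by 0.40 (limma adjusted p = 0.0445).

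The promoter motifs were then set against the HAMSB and HAMS comparison as a description. Of the 24 genes that passed, 18 had a promoter entry. The GABPA core was in 8 of these 18 and in 10 of the other 36, the E-box in 4 of 18 and 2 of 36, the NRF1 core in 2 of 18 and 4 of 36, and the YY1 core in 2 of 18 and 12 of 36. None of the 4 motifs was in 6 of the 18 and in 17 of the 36, while Mrps18b, which did not pass, held all 4.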

How the data were processed

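Gene expression was measured on 43 Affymetrix arrays of rat distal colon, 1 rat each. The deposited values are log2 expression made by the authors with RMA, per the submitters' processing notes; its version and other steps are not given in the sources used here. Arrays have no read depth, so their number limits the precision. Of 29214 probe sets, 15310 carried 1 gene symbol in the platform annotation, 323 several and 13581 none; those with several were left out, which removed Mrpl20. Genes were tested when the median over the arrays reached 4.79, the 25th percentile of probe sets with 1 symbol.

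Diet means were estimated in a single fit per gene, using lmFit and eBayes of limma 3.58.1 with the default prior (R 4.3.3). Tests were two-sided with Benjamini-Hochberg adjustment over all 10828 genes and a threshold of 0.05. The p-values set differences between diets against the spread between arrays of a diet, each from a different rat. In the fit without covariates this spread also takes in differences of name style and lymphoid level. The members, the gene lists and the tests were chosen with earlier results of these data known. Named were up to 4 genes with the largest rise and fall among those that passed in a comparison, or the 4 smallest p-values where fewer than 4 passed, and the 6 leading the F test. Also named were genes with 2 probe sets and, from each list, up to 2 genes with the smallest p. Other names were chosen after their values were seen, as were the test of name style and the fits within 1 name style. Signals of different probe sets were not ranked against each other. The fit was tested on simulated data. Promoters came from RefSeq (GRCr8). Same-numbered rats of different diets did not deviate together (mean r = -0.06 over 94 pairs), so replicate numbers were not used as pairs. Figures were drawn with matplotlib 3.10.9.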

Additional observations from a re-analysis of the deposited data

Results flagged for a closer look

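Of 168 groups of 5 to 9 arrays checked for a single array far from the rest, 6 held one. Chance alone flags about 1 in 20, so this is no more than chance would give. HAW replicate 8 was the low array in 4 of them. It read 5.93 for Mrpl22, where the next HAW array read 6.60, 4.96 for Mrpl32 against 5.41, and 5.84 for Mrps35 against 6.33. Its mean over the 68 genes, which includes these genes, was 6.76 against 7.04 for the next, so the 4 are not separate observations. This array also had the narrowest spread of all, an interquartile range of 2.68, and a lymphoid level of 8.36; their part in its low values was not tested. LAW replicate 3 read 6.35 for Mrpl2, where the next LAW array read 6.84. The lymphoid level of CON replicate 5 was 8.19, with the next CON array at 5.84.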

How the results depend on the processing

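For single named genes, 340 of 437 alternative values kept their direction and their side of the threshold, 87 no longer passed, 10 newly passed and 0 reversed. The 437 include genes that did not pass in the main fit, many far from the threshold, so the 340 do not measure how stable the calls were. Genes that passed lost their call in 0 of 10 (Mrps21, HAMSB against LAMS) to 7 of 10 alternatives (Mrpl46 and Mrpl47, HAMS against LAMS). Of the 87, 26 came with the lymphoid level as a covariate and 25 with name style and lymphoid level together. LAMS against CON, LAW against LAMS and HAW against LAW had 0 genes called under every alternative run. The causes of the changes below were not tested.

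Under a stricter filter on low signal, HAMS against LAMS called 4 genes instead of 2. With arrays centred it called 0, and HAMSB against LAMS 11 higher instead of 3, against 3.93% of all genes. With arrays centred and scaled these were 1 and 15, the latter against 4.55% of all genes higher; scaling moved the median of all genes for HAMS against LAMS by 0.12 log2. With array weights the F test called 52 instead of 24, HAMS against LAMS 17, HAMSB against LAMS 33 and HAMSB against HAMS 43 instead of 24. The shares of all genes called under the stricter filter and with array weights are not given here. These counts are therefore not read as particular to this family. With name style as a block HAMS against LAMS called 8, against 8.79% of all genes. With the lymphoid level as a covariate HAMS against LAMS called 0, HAMSB against LAMS 10 and HAMSB against HAMS 1. Of all genes, that fit called 6.02%, 13.4% and 2.04%, in the same order. With both, the F test called 3, HAMS against LAMS 1, HAMSB against LAMS 7 and HAMSB against HAMS 4. For these comparisons of diets 0.776%, 7.85% and 4.51% of all genes were called, in the same order. With array spread as a covariate the F test called 15, HAMS against LAMS 0 and HAMSB against LAMS 7. For these comparisons of diets 0.0554% and 5.54% of all genes were called. The shares of all genes passing the F test in this fit and in the fit with both are not given here. Within code-first names, chosen after seeing the data, HAMS against LAMS called 11 and HAMSB against LAMS 1, against 11.3% and 0.351% of all genes.

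Leaving out 1 array at a time gave 13 to 30 genes for the F test, 0 to 9 for HAMS against LAMS, 0 to 11 for HAMSB against LAMS, 15 to 32 for HAMSB against HAMS and 37 to 50 for the slope on lymphoid level. With replicate number as a block, HAMS against LAMS called 0, HAMSB against LAMS 11, HAMSB against HAMS 25 and the F test 21, although the numbers do not pair the rats. The shares of all genes called in that fit are not given here. Signal over background of single probe sets was not analysed here.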
